A study of Homo sapiens with 12 samples.

Results

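The cytosolic ribosomal protein genes are the genes of RPSA, RPLP0, RPLP1 and RPLP2 and all genes whose symbol is RPL or RPS followed by a digit, without the RPS6K kinases, pseudogenes and readthrough symbols. They were found on the arrays through the RefSeq accession that the scanner files give each probe, which was matched to the human RefSeq gene table. The rule took 188 array probes of 86 genes, out of 41000 gene probes and 16557 named genes. One of them, RPS19BP1, encodes a binding protein of RPS19 and no ribosomal protein, and it is given apart in the closing observations, which left 187 probes of 85 genes. These were 43 large subunit genes, 30 small subunit genes, the 3 genes of the stalk and 9 paralogs of canonical members. Of 88 symbols that the rule finds in the RefSeq table, RPSA and RPL22L1 had no matched probe.

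A ribosome consists of a small subunit, which reads the mRNA, and a large subunit, which joins the amino acids. Each subunit is built from ribosomal RNA and from proteins that are made in the cytoplasm and assembled in the nucleolus, mostly in equal numbers of copies. Ribosomal protein mRNAs are among the most abundant mRNAs of growing cells, and their transcripts begin with a run of pyrimidines, the terminal oligopyrimidine (TOP) motif, through which nutrient and mTOR signals set their translation together. Several members also act outside the ribosome, such as RPL5 and RPL11, which bind MDM2 when ribosome assembly is disturbed.

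Expression was measured in H358 cells, an established human lung adenocarcinoma line, with 12 one-colour Agilent 44 k arrays. All arrays came from the H358/Tet-On/SRSF2 clone, a single inducible clone in which a Tet-responsive promoter drives the splicing factor SRSF2. Of the arrays, 6 were labelled control, with no treatment given, and 6 were labelled SRSF2 over-expression, for which SRSF2 was induced for 24 hours with 1 µg/mL doxycycline. Doxycycline and SRSF2 therefore cannot be told apart in this design. The arrays lay on 3 slides, each holding 2 arrays of either condition. By the supplement to the paper, each condition had 3 labellings with 2 arrays each, and which arrays shared one is not given in the sources used here. The 6 arrays of a condition are therefore not 6 separately labelled samples. The p-values measure only the spread between these arrays, which may be technical. The question was which ribosomal protein mRNAs differ between the conditions, and by how much.

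The only SRSF2 probe ran against the labels. Its log2 signal, given throughout relative to the 75th percentile of the gene probes on the same array, lay at 3.74 to 4.03 in the controls and at 2.29 to 2.56 in the other group, so that the probe fell by 1.46 on the log2 scale (SE 0.063, limma adjusted p = 1.68e-09). Where that probe lies relative to the introduced sequence was not determined, other assays of SRSF2 in the study were not used here, and every direction below refers to the labels. Of the markers, all 5 epithelial genes were well above background on all arrays and the 3 fibroblast genes on the array were above it on none. Of the 8 epithelial probes tested, 2 were higher and 1 was lower in the arrays labelled SRSF2 over-expression. Of the 4 lung epithelial genes 3 were above it on all arrays and SFTPB on 2 control arrays, and of the 4 probes tested the 2 of NKX2-1 were higher. Markers of endothelium were at background in 1 of 3 genes, with 1 tested probe higher and 1 lower. Of the leukocyte genes, PTPRC was above background on no array, CD14 on all 12 and CD3E, on its brighter probe, on 5 of 6 arrays of either condition, and neither of the 2 probes tested was called. The part of other cells in the results was not tested.

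To show the TOP motif, the bases around the annotated transcript start were read from RefSeq promoters (GRCh38.p14) for the genes called lower, for RPL4 and RPL7A, which were called higher, and for RPS27 beside its paralog RPS27L. Each line holds 10 bases before the start and 20 from the start on, and capitals mark the unbroken run of pyrimidines from the start base.
RPS14: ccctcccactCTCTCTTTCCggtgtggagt
RPS28: gaagcacgtgactcctctccgccagaccgc
RPL28: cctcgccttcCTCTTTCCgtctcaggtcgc
RPL3: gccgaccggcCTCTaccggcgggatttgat
RPL22: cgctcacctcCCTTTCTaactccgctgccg
RPL4: cgggagtggtaagcacttccttttcctgtg
RPL7A: attccctttcCTTTCTCTCTCCTCCCgccg
RPS27: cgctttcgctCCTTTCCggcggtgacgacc
RPS27L: gatgccgagcgcagatcgcttgcagcttgc
These windows lie at chr5:150449720-150449749 (RPS14, minus strand), chr19:8321486-8321515 (RPS28, plus strand), chr19:55385922-55385951 (RPL28, plus strand), chr22:39319604-39319633 (RPL3, minus strand), chr1:6199576-6199605 (RPL22, minus strand), chr15:66504836-66504865 (RPL4, minus strand), chr9:133348208-133348237 (RPL7A, plus strand), chr1:153990752-153990781 (RPS27, plus strand) and chr15:63157458-63157487 (RPS27L, minus strand), and each spans the promoter and the first exon.

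A start match was a C at the start base followed by 4 bases that are each C or T, on the strand of the gene. It was present in 46 of 84 promoters of the 68 ribosomal protein genes matched (54.8%), against 4.07% of all 35116 promoters in the table. Without the paralogs the share was 59.2%, and it was 1 of 8 promoters among the paralogs. Of the genes with a promoter, 10 of 17 called higher and 2 of 4 called lower held a match, as did RPL22, which was called both ways, and 33 of 46 genes with no call. A match depends on the annotated start, and where none was found only the letters of that window are known. Within 10 bases of the start, a match was present in 77.4% of the ribosomal protein promoters, against 33.5% of all promoters. Of the genes shown above without a start match, RPL4, RPS28 and RPL3 had one within that distance and RPS27L had none.

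Most ribosomal protein mRNAs differed little between the conditions. Of 187 probes 186 passed the filter on dim probes, and 185 were well above background on all 12 arrays. The median log2 fold change was 0.07 (quartiles -0.01 and 0.16), against 0.01 over all 24330 probes tested (quartiles -0.30 and 0.31), and 136 of 186 values were above 0. With the limma adjusted p held to 0.05 or less, 36 probes were higher, where 29.7% of all probes tested were higher, and 7 were lower, where 28.0% of all were lower. Thus 43 of the 186, or 23.1%, were called, against 57.7% of all probes tested. None of the called ribosomal protein probes reached 1.5-fold, which 23.0% of all probes tested did, and none reached 2-fold, which 7.00% did. The largest change was 1.36-fold. For 179 of 186 probes the 95% interval lay within 1.5-fold in either direction, as it did for 54.8% of all probes. The 6 arrays of one condition did not overlap with the 6 of the other for 17 of the 186, and for 40.2% of all probes tested.

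**Figure D1:**
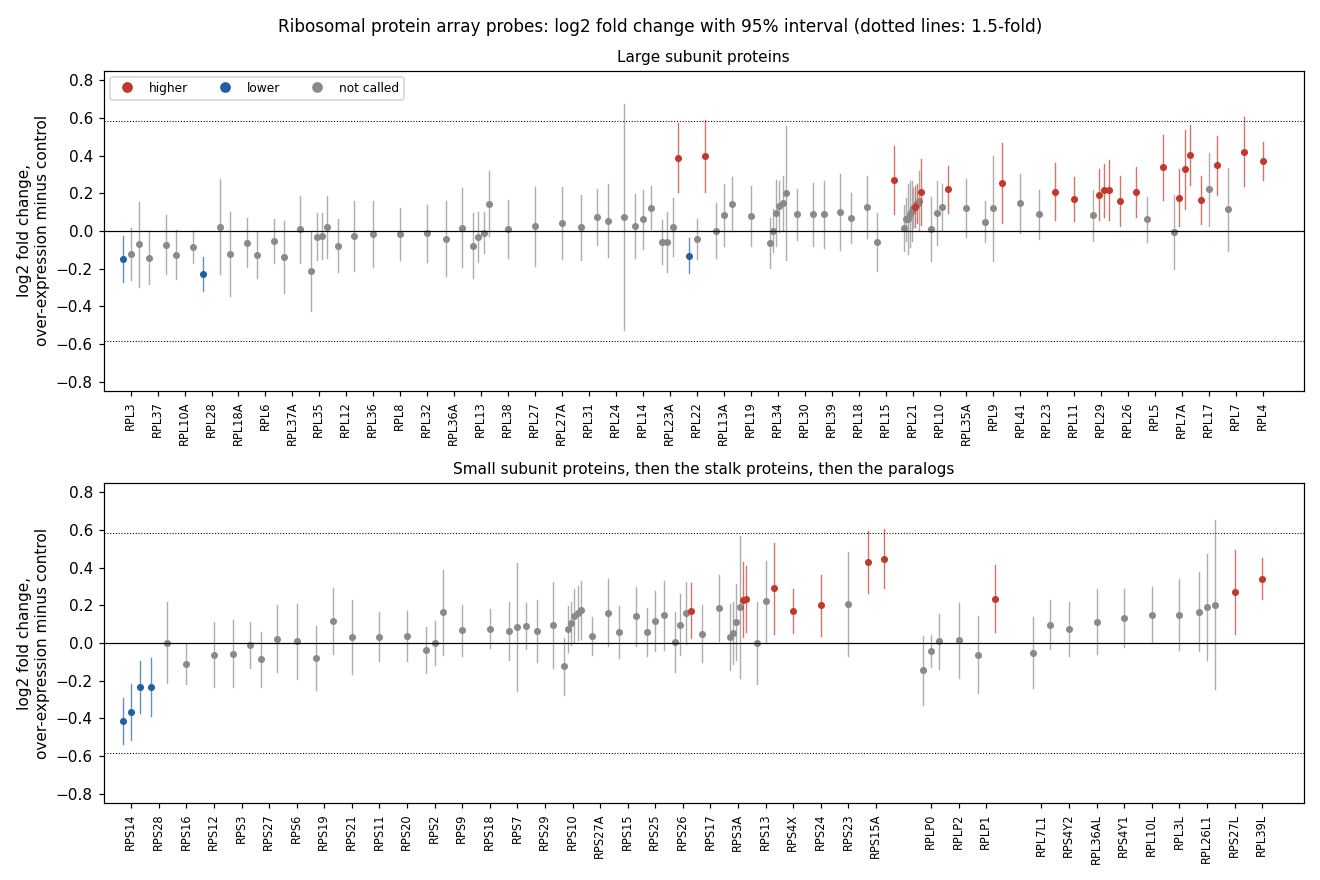
Log2 fold change (over-expression minus control labels) of 183 ribosomal protein probes tested, each with its 95% interval, grouped by gene and ordered within each class by the mean of the gene. Red points were called higher and blue points lower (limma adjusted p up to 0.05); no called point lies beyond the dotted lines at 1.5-fold, RPS14 stands at the low end with 3 blue points, and RPS15A at the high end with 2 red ones.

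By gene, 24 of 85 had a probe called higher and none lower, 4 had a probe called lower and none higher, RPL22 had both, and 56 had no call. Of all 11593 genes tested, 7751 had a call and 359 were called both ways. Probes without a symbol were counted together as a gene there. Of 105 large subunit probes 23 were higher and 3 lower with a median log2 fold change of 0.07, and of 63 small subunit probes 10 were higher and 4 lower with a median of 0.07, a difference between the subunits not being tested. Of the 6 stalk probes 1 was higher, and of the 12 paralog probes 2 were higher and none lower (median 0.15).

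The arrays separated by slide, and by condition only within slides 2 and 3. The median log2 signal over the ribosomal protein probes was 6.65 to 6.77 on the 4 arrays of slide 1, 6.85 to 6.89 on those of slide 2 and 6.93 to 7.05 on those of slide 3, so the slides did not overlap. Over all slides, the control arrays (6.73 to 6.94) lay inside the range of the others. On slide 2 the arrays labelled SRSF2 over-expression had 6.894 and 6.887 and the controls 6.846 and 6.858. On slide 3 these values were 7.054 and 7.044 against 6.935 and 6.925. On slide 1 they overlapped, with 6.653 and 6.769 against 6.734 and 6.76. Within a slide, the median difference over the ribosomal protein probes came to 0.07 for slide 1, 0.06 for slide 2 and 0.10 for slide 3. All 43 called probes had their direction on slides 2 and 3, and all 42 of them that had values on slide 1 had it there. These probes were chosen for their difference over the same arrays, so the agreement is largely set by that choice and is no separate support. With slide as a block 75 probes were higher and 17 lower, and with the replicate number as a block 56 were higher and 11 lower. With each pair of arrays that share slide and condition averaged to 1 value, 9 were higher and 2 lower. Of all probes tested, 70.1% were called with slide as a block, 65.75% with the replicate block and 39.0% after the averaging.

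The calls rested on the scaling and on the background correction, although the median over the ribosomal protein probes was above 0, at 0.06 to 0.30, under all 20 alternatives, and 0.04 to 0.33 above the median of all probes. Scaled on the spike-in controls of the arrays, the median of all probes moved to 0.24 and that of the ribosomal protein probes to 0.30, which is 0.06 above it, and 11 were called higher and none lower, 7 of them past 1.5-fold. Without slide 1 the 2 medians under spike-in scaling were 0.06 and 0.14, and none of the ribosomal protein probes was called by limma, with 4 at an unadjusted p under 0.05. After normexp background correction none of 186 was called by limma, and 12 had an unadjusted p under 0.05. Calls fell over all probes too. Of all probes tested, 28.7% were called with spike-in scaling, 25.55% with it and without slide 1, and 11.6% after normexp. As reported the share was 57.7%.

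**Figure D2:**
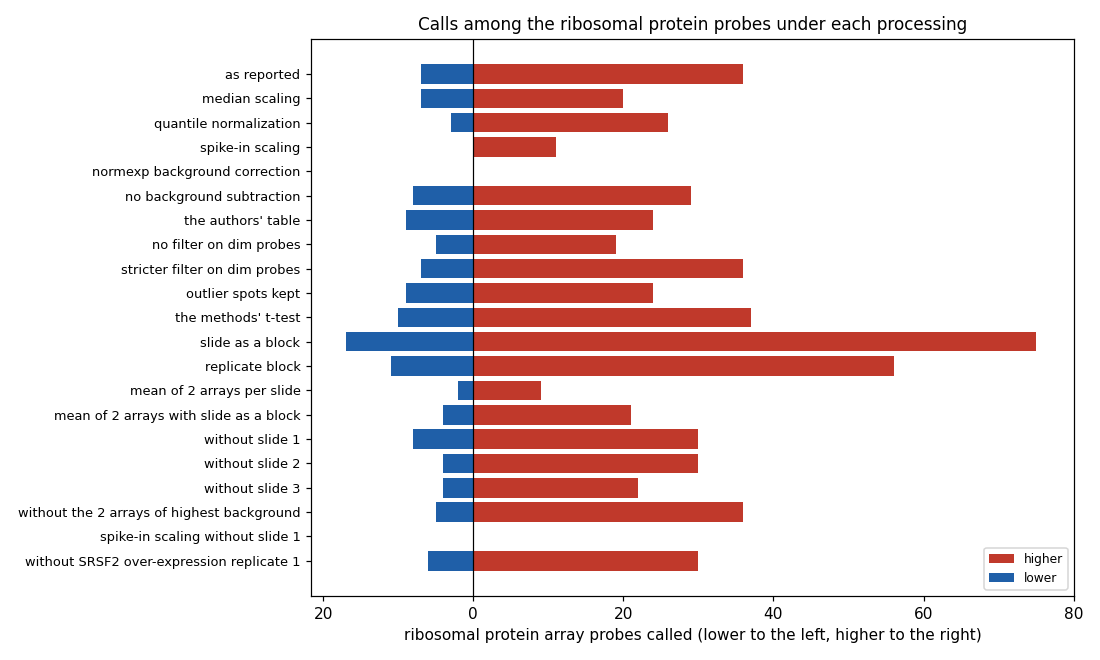
Number of ribosomal protein probes called higher (red, to the right) and lower (blue, to the left) at an adjusted p of at most 0.05, as reported and under each of 20 alternative processings. The counts run from none after normexp to 75 higher and 17 lower with slide as a block. Of all probes tested, 11.6% were called after normexp and 70.1% with slide as a block.

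Most ribosomal protein spots were read from the scan at the low detector (photomultiplier) setting. Of the 187 probes 158 (84.5%) were read from that scan on every array, as were 2.80% of the other gene probes. The scanner software flagged outlier spots for 70 of the 187 on at least 1 array (37.4%, against 1.35% of the other probes), and flagged spots were left out of the fit. Of these spots 53 were on replicate 1 of the arrays labelled SRSF2 over-expression, and 16 each on replicate 2 of that group and replicate 1 of the controls, all on slide 1. Of the 43 called probes 33 had values on all 12 arrays. With the flagged spots kept 24 probes were higher and 9 lower, and without that replicate 1, 30 were higher and 6 lower. Among the upper 93 probes by mean signal 8 were called, and among the lower 93 it was 35. Of the 731 other probes at least as bright as the lower quartile of the ribosomal protein probes, 33.0% were called and 3.01% were called at 1.5-fold.

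**Figure D3:**
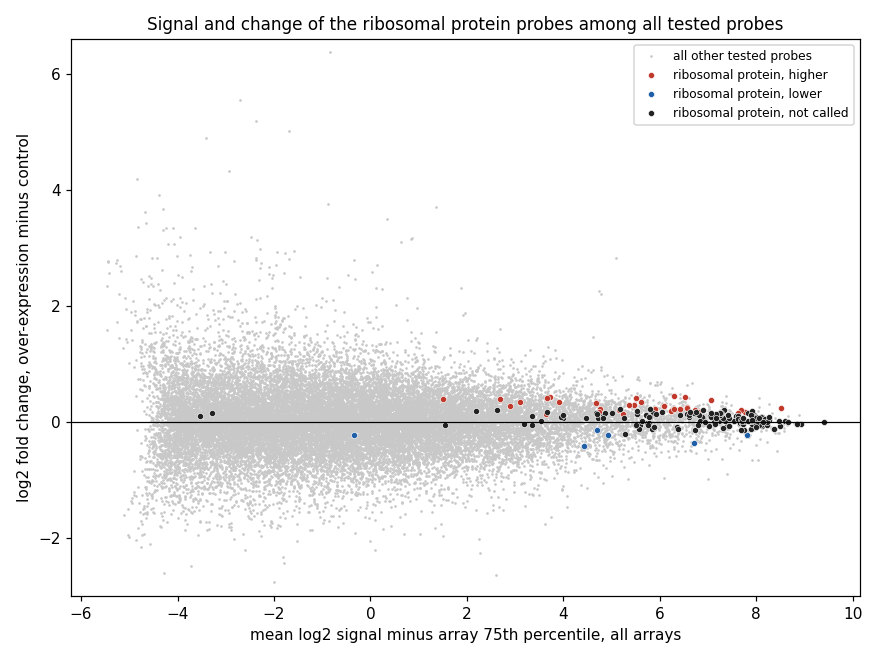
Mean log2 signal over all arrays (horizontal) and log2 fold change (vertical) of all 24330 tested probes in grey, with the 186 ribosomal protein probes in red (called higher), blue (called lower) and black (not called). Most ribosomal protein probes lie at the bright end, and all lie between -0.41 and 0.45 on the vertical axis.

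Among the small subunit genes, RPS14 was lower on all of its 3 probes. RPS14 sits on the platform of the small subunit, and loss of a copy is known from the myelodysplastic syndrome with a deletion on chromosome 5. On probe A_24_P808522 the control arrays had log2 signals of 4.45 (lowest), 4.62 (median) and 4.78 (highest), and the arrays labelled SRSF2 over-expression 4.15, 4.21 and 4.31. On A_24_P418239 these values were 6.75, 6.86 and 7.03 in the controls and 6.41, 6.47 and 6.74 in the other group. On A_23_P81492 they were 7.77, 7.91 and 8.09 against 7.59, 7.67 and 7.81. The conditions did not overlap on the first 2 probes and overlapped narrowly on the last. The log2 fold changes were -0.41 (SE 0.056, limma adjusted p = 4.06e-05), -0.36 (SE 0.068, limma adjusted p = 0.000516) and -0.23 (SE 0.063, limma adjusted p = 0.00619). The first and the last probe differed from each other by 0.18 in log2 fold change (limma adjusted p = 0.0322). None of the 3 was called with spike-in scaling, where the log2 fold changes shrank to -0.18, -0.13 and -0.001, or with normexp, where they were -0.20, -0.12 and -0.06. With spike-in scaling and without slide 1 they were -0.41, -0.36 and -0.21, also not called. With quantile normalization A_24_P418239 and A_23_P81492 were not called.

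RPS15A, a protein of the small subunit body, was higher on both of its probes. On A_32_P14744 the control arrays had 5.98, 6.09 and 6.16, and the arrays labelled SRSF2 over-expression 6.40, 6.45 and 6.77. On A_24_P221366 the controls had 6.22, 6.32 and 6.44 and the 5 measured arrays of the other group 6.66, 6.71 and 7.02. Neither probe had overlapping conditions. The log2 fold changes were 0.45 (SE 0.072, limma adjusted p = 0.000166) and 0.43 (SE 0.075, limma adjusted p = 0.000383), the largest rises of all ribosomal protein probes. Neither was called after normexp (0.62 and 0.50), nor A_24_P221366 with spike-in scaling (0.60), although these values were larger. Over all 20 alternatives the lowest values were 0.39 and 0.38.

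RPS28, at the exit of the mRNA channel, was lower on A_24_P40010, with 4.79, 5.11 and 5.16 in the controls and 4.71, 4.82 and 4.86 in the arrays labelled SRSF2 over-expression (log2 fold change -0.23, SE 0.070, limma adjusted p = 0.0117), while its other probe had 0.00. A difference between these 2 probes was not called (limma adjusted p = 0.0706). One control array of slide 1 fell among the other group on A_24_P40010. That probe was not called in 8 of 20 alternative processings, among them leaving out slide 2, leaving out slide 3 and averaging the 2 arrays of a slide. With spike-in scaling its log2 fold change was -0.001, and -0.25 with that scaling and without slide 1.

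Further calls among the small subunit genes were those of RPS3A with 2 of 6 probes higher, and RPS4X, RPS13, RPS24 and RPS26 with 1 each, by 0.17 to 0.29 on the log2 scale. RPS24 and RPS26 are genes of Diamond-Blackfan anaemia, and RPS4X is the X-linked partner of the paralogs RPS4Y1 and RPS4Y2. The probe of RPS4X was not called in 10 of 20 alternative processings. In all, 21 small subunit genes had no call, among them RPS6, the protein phosphorylated by the S6 kinases, with 0.01 on its probe, and RPS19, with -0.08 and 0.12.

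Among the large subunit genes, RPL4 had the smallest adjusted p of the ribosomal proteins. RPL4 sends a loop into the tunnel through which the new protein leaves. Its probe had 6.80, 6.86 and 6.95 on the control arrays and 7.17, 7.26 and 7.31 in the other group. No array of one condition reached the other. The log2 fold change was 0.37 (SE 0.047, limma adjusted p = 1.93e-05), or 29.4% more signal.

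RPL17 and RPL23A each had probes that were called and probes that were not. RPL17, which lines the tunnel, had 5.34, 5.44 and 5.50 in the controls on A_32_P21384 and 5.62, 5.75 and 5.99 in the other group, with no overlap (log2 fold change 0.35, SE 0.072, limma adjusted p = 0.00107). Of its other probes, A_32_P186981 was higher by 0.16 (limma adjusted p = 0.0324) and differed from A_32_P21384 (limma adjusted p = 0.0266), and A_32_P158746 had 0.22 and was not called (limma adjusted p = 0.051). RPL23A, which binds the signal recognition particle at the tunnel exit, was higher on A_24_P91140, with 2.18, 2.55 and 2.62 against 2.70, 2.94 and 3.01 (0.39, SE 0.085, limma adjusted p = 0.00162). Its other 3 probes had -0.06, -0.06 and 0.02, and each differed from A_24_P91140 (limma adjusted p of the difference 0.00243, 0.00297 and 0.0136). The call for RPL23A thus held for 1 of 4 probes. The mean log2 signal over all arrays was 2.69 on that probe, 8.105 on A_23_P29747 and 8.054 on A_24_P67699.

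RPL7 and RPL7A are neighbours in name but different proteins of the large subunit. RPL7 was higher on A_32_P31182, with 3.36, 3.51 and 3.73 in the controls and 3.72, 4.00 and 4.11 in the arrays labelled SRSF2 over-expression (0.42, SE 0.085, limma adjusted p = 0.000933), and the conditions overlapped by 1 array each. Its other probe, A_32_P155364, had 0.11 and was not called, and the 2 probes differed by 0.24 within arrays (limma adjusted p = 0.0144). The mean log2 signal over all arrays was 3.72 on A_32_P31182 and 7.25 on A_32_P155364. RPL7A was higher on A_32_P88892, with 5.06, 5.34 and 5.40 against 5.54, 5.71 and 5.86 and no overlap (0.40, SE 0.073, limma adjusted p = 0.000412). Of the other probes of RPL7A, 2 were higher by 0.33 and 0.18, and A_23_P135084 had -0.01 and differed from A_32_P88892 by 0.41 (limma adjusted p = 0.0425). Mean signals were 5.50 on A_32_P88892 and 8.18 on A_23_P135084. RPL5, which carries the smallest ribosomal RNA into the large subunit with RPL11, was higher by 0.34 on A_23_P12140 (SE 0.080, limma adjusted p = 0.0029) and had 0.06 on its other probe, and RPL11 was higher by 0.17 (SE 0.052, limma adjusted p = 0.0168).

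RPL22 was the only ribosomal protein gene with probes called in opposite directions, where 359 of all 11593 genes tested had such probes. RPL22 binds small viral RNAs and is dispensable for general translation. On A_24_P849801 the controls had 1.20, 1.24 and 1.55 and the arrays labelled SRSF2 over-expression 1.51, 1.69 and 1.92 (log2 fold change 0.40, SE 0.088, limma adjusted p = 0.00171). On A_32_P210252 they had 4.71, 4.78 and 4.79 against 4.54, 4.63 and 4.71 (-0.13, SE 0.043, limma adjusted p = 0.0177), and on A_23_P115460 the log2 fold change was -0.04 (limma adjusted p = 0.484). Each called probe overlapped at the edge. The mean log2 signal over all arrays was 1.51 on A_24_P849801, 4.69 on A_32_P210252 and 3.175 on A_23_P115460. The difference between the first 2 probes was 0.53 (SE 0.084, limma adjusted p = 0.000248), the largest among 200 probe pairs of 54 ribosomal protein genes. The fall on A_32_P210252 was not called in 11 of 20 alternative processings, among them quantile normalization and leaving out slide 2 or slide 3. With spike-in scaling it turned to 0.10 and with normexp to 0.04. It was -0.11 with spike-in scaling and without slide 1, and none of these 3 values was called.

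RPL28 and RPL3 were the other large subunit genes with a fall. RPL28 was lower on A_24_P916251, with -0.28, -0.23 and -0.16 in the controls and -0.48, -0.46 and -0.38 in the other group, with no overlap (-0.23, SE 0.041, limma adjusted p = 0.000424), and had 0.02 on its other probe. A difference between these 2 probes was not called (limma adjusted p = 0.077). RPL3, which reaches towards the peptidyl transferase centre, had 7.73, 7.84 and 7.88 on A_23_P68942 against 7.52, 7.66 and 7.79 (-0.15, SE 0.056, limma adjusted p = 0.0389). Its other 2 probes had -0.12 and -0.07 and were not called. With spike-in scaling the log2 fold change of RPL28 was 0.01 and that of RPL3 was 0.08, and without slide 1 they were -0.21 and -0.09 under that scaling, none of them called. RPL3 was not called in 13 of 20 alternative processings.

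The remaining large subunit rises were small. RPL29 had 3 of 4 probes higher, RPL21 3 of 10, RPL26 both, and RPL9, RPL10, RPL15 and RPL23 1 each, by 0.13 to 0.27 on the log2 scale. Of the RPL26 probes, A_32_P93782 was not called in 13 of 20 alternative processings and A_23_P33045 in 9. RPL10 joins the subunit late, next to the peptidyl transferase centre, and its called probe A_24_P272710 (0.22, SE 0.057, limma adjusted p = 0.00533) did not overlap between conditions, while its other 3 tested probes had 0.01, 0.09 and 0.13. The fifth probe of RPL10 was above background on no array and was not tested. The 26 large subunit genes with no call included RPL8 and the common reference genes RPL13A and RPL32, with log2 fold changes between -0.02 and 0.14.

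**Figure D4:**
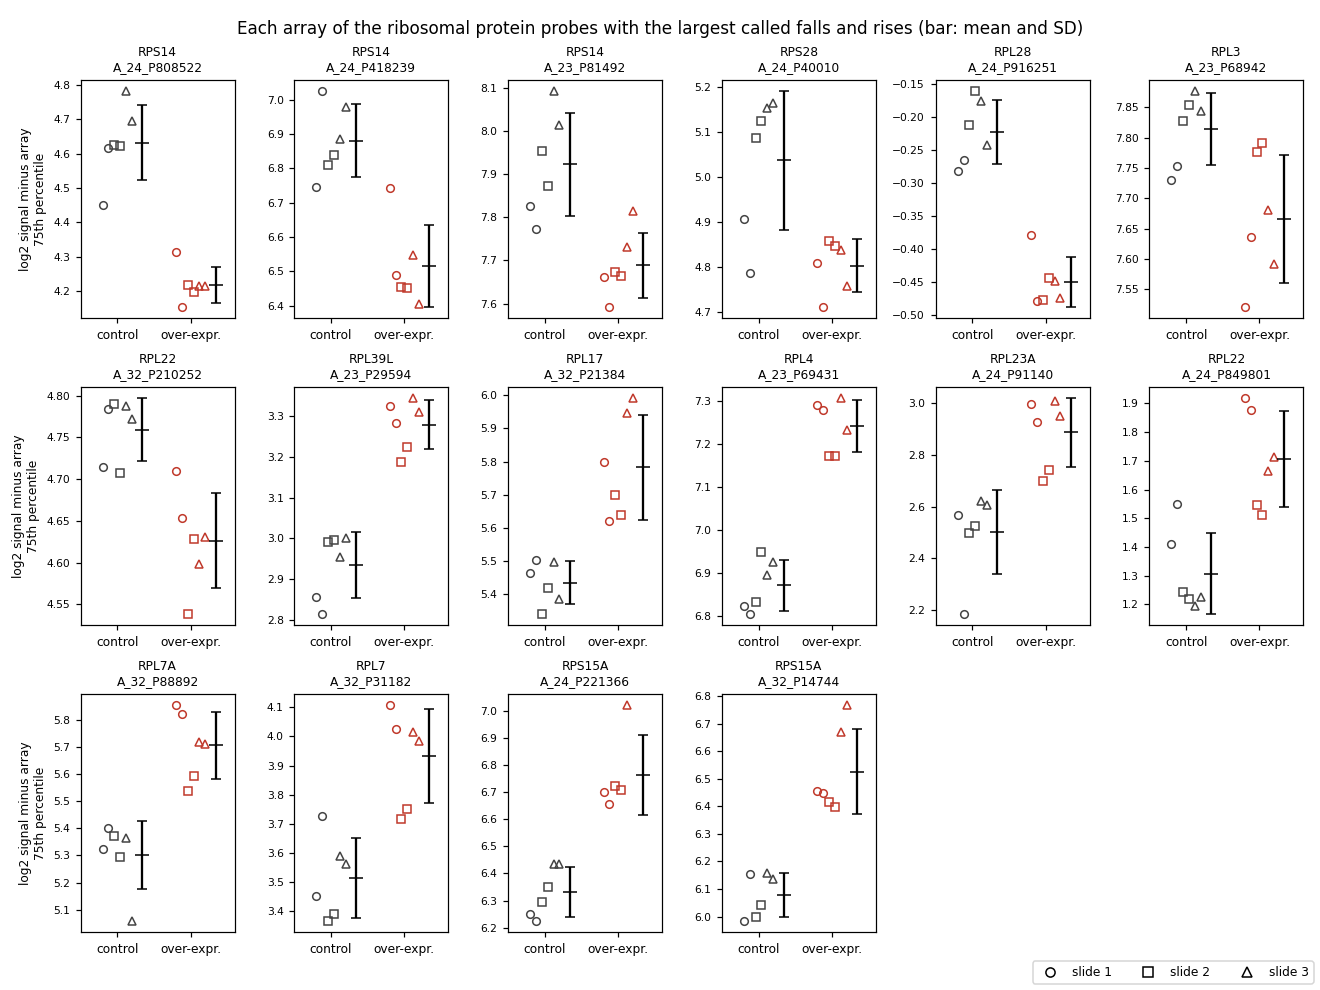
Log2 signal minus that array's 75th percentile for the 7 ribosomal protein probes called lower and 9 of the 10 with the largest called rises, 1 panel a probe with its own vertical scale. Grey symbols are control arrays and red ones arrays labelled SRSF2 over-expression, the shape gives the slide, and the bar is the mean with its SD; RPS14 A_24_P808522, RPL4 and RPS15A show separated groups, whereas RPS28 and RPL3 overlap.

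The proteins of the stalk recruit the elongation factors to the large subunit. RPLP0, the base of the stalk and a common reference gene, had log2 fold changes of -0.15, -0.04 and 0.01 on its 3 probes (limma adjusted p = 0.156, 0.371 and 0.925). On A_23_P204472 the controls had 7.10, 7.17 and 7.19 and the arrays labelled SRSF2 over-expression 7.04, 7.12 and 7.15, so that the ranges overlapped. The probe with -0.15, A_32_P116881, was called lower in the fits that take slide (limma adjusted p = 0.00445) or replicate number (limma adjusted p = 0.0212) as a block, but not in the slide-blocked fit after averaging the 2 arrays of a slide (limma adjusted p = 0.145). RPLP1 was higher on A_23_P37445, with 8.27, 8.36 and 8.66 in the controls and 8.57, 8.62 and 8.73 in the 5 measured arrays of the other group (0.23, SE 0.081, limma adjusted p = 0.0274). On its other probe, A_32_P857658, RPLP1 had -0.06 (limma adjusted p = 0.589), and the 2 probes differed (limma adjusted p = 0.0308). The call on A_23_P37445 was lost in 10 of 20 alternative processings, among them keeping the flagged spots and leaving out slide 1 or slide 3. The mean log2 signal over all arrays was 8.52 on A_23_P37445 and 8.225 on A_32_P857658. RPLP2 had 0.01 (95% interval -0.18 to 0.21).

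The paralogs are related copies of canonical members, and some of them replace the canonical protein in some tissues or states. RPL39L, the copy of RPL39 known from the testis and from some tumours, was higher, with 2.82, 2.97 and 3.00 in the controls and 3.19, 3.30 and 3.34 in the arrays labelled SRSF2 over-expression and no overlap (0.34, SE 0.051, limma adjusted p = 7.88e-05). RPL39 itself had 0.09 and 0.10 on its 2 probes (limma adjusted p = 0.379 and 0.384). RPS27L, a target of p53, was higher by 0.27 (SE 0.10, limma adjusted p = 0.0373), with 2.53, 2.72 and 2.93 against 2.76, 3.06 and 3.31 and an overlap, and RPS27 had -0.09 and 0.02. RPS27L was not called in 12 of 20 alternative processings. Among them were the methods' t-test and leaving out slide 1, slide 3 or replicate 1 of the arrays labelled SRSF2 over-expression.

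The other 7 paralogs had no call in the fit as reported. RPL3L, the copy of RPL3 in striated muscle, had 0.15 (95% interval -0.04 to 0.34), RPL10L, a copy of RPL10 in the testis, 0.15 (-0.002 to 0.29), and RPL36AL 0.11 (-0.06 to 0.29). RPL26L1 had 0.17, 0.19 and 0.20 on its 3 probes, with intervals that included 0, where both probes of RPL26 were higher by 0.16 and 0.21. RPL7L1 had -0.05 and 0.10, and RPS4Y1 and RPS4Y2 had 0.13 and 0.07. Without a block, RPL10L was called higher when slide 1 was left out, and RPS4Y1 when slide 2 was. Slide as a block compares the arrays within a slide. With it, the 3 probes of RPL26L1 (limma adjusted p = 0.000238, 0.00164 and 0.00961), RPL10L (0.00571), RPL7L1 A_23_P42163 (0.0154), RPL36AL (0.0186) and RPS4Y1 (0.0247) were called higher. With a replicate block these were called too apart from RPS4Y1 (limma adjusted p = 0.0505), and none was with slide as a block after averaging the 2 arrays of a slide (limma adjusted p 0.0586 to 0.272). Probes of genes with near-identical copies may take up RNA of the copy, which the files do not separate.

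Several of the probes with the highest mean signal were not called. RPS2, near the mRNA entry, had log2 fold changes of 0.00 (SE 0.053) and -0.04 (SE 0.056) on 2 probes, RPL13 had -0.03 (SE 0.062) and RPL38 had 0.01 (SE 0.071). On RPS2 A_23_P106708 the controls had 9.34, 9.41 and 9.47 and the other group 9.26, 9.43 and 9.47. The 95% intervals of these 4 lay between -0.17 and 0.16. Signals of different probes were not compared as amounts of RNA.

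Probes of one gene did not always move together. Of 54 genes with several tested probes 35 had all log2 fold changes on one side of 0. Over all 186 probes, 136 values were above 0 in any case. Of the 23 of these genes with a call, every probe was called higher for 3, RPS15A and RPL26 among them, and every probe lower for RPS14. Of the 200 pairs of probes 20 differed (10.0%), in 13 genes, whereas 40.0% of the 6314 pairs over all genes did. In 13 of the 20 the log2 fold changes had opposite signs. Besides RPL22 and RPL23A, the pairs that differed included RPL15, with 0.27 on A_24_P257359 and -0.06 on A_23_P253200 (difference 0.35, limma adjusted p = 0.00195), and RPS10, where A_23_P356484 had -0.12 and differed from 4 of the other 5 probes, which had 0.07 to 0.17.

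The other lists of protein synthesis genes had 54.5% to 75% of their probes called, on either side of the 57.7% over all probes tested. Of 102 probes of mitochondrial ribosomal proteins, which build the ribosome inside mitochondria, 35 were higher and 34 lower (67.6%), 17 of them at 1.5-fold, with a median log2 fold change of -0.04. Of 81 probes of translation factors 34 were higher and 18 lower, 11 at 1.5-fold, with a median of 0.13. Other mRNAs with a TOP motif, a list that shares genes with the factors, had 30 of 62 higher and 10 lower and a median of 0.19. Of 88 probes of ribosome biogenesis factors 34 were higher and 32 lower, and of 22 probes of RNA polymerase I, which transcribes ribosomal RNA, 9 were higher and 3 lower. The ribosomal proteins, at 23.1% called and none at 1.5-fold, had the lowest share among these lists. These shares are given without a test, and the lists differ in signal.

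**Figure D5:**
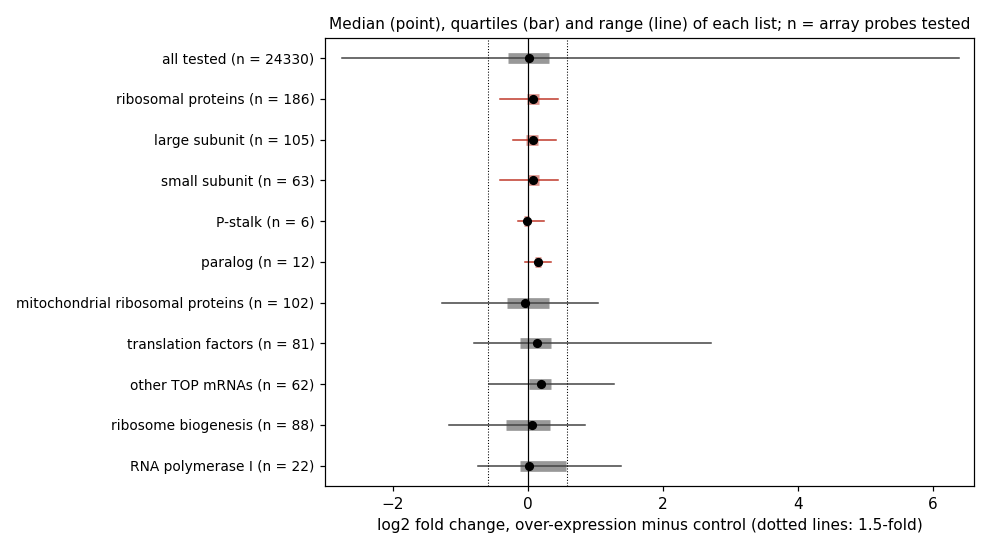
Log2 fold change (over-expression minus control labels) over all tested probes, over the ribosomal protein probes and their classes (red), and over 5 other lists of protein synthesis genes (grey), with the median as a point, the quartiles as a thick bar and the range as a line. The ribosomal protein probes span -0.41 to 0.45 and stay inside the dotted lines at 1.5-fold, which each of the 5 other lists crosses.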

How the data were processed

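Processed data of 12 arrays, 6 per condition, were used as labelled. The authors deposited Feature Extraction 10.7.3.1 output, in which the processed intensity is background-subtracted per spot, and a table of log2 values (GeneSpring GX is named in the methods); 92.0% of the latter lay within 0.05 of the log2 values computed here after centring each probe. Log2 of the processed intensity minus the 75th percentile of the array was computed, outlier spots were left out and spots of a probe averaged. Probes well above background on at least 5 arrays of a condition and missing on at most 25% of arrays were tested with limma 3.58.1 (R 4.3.3), over-expression against control without covariates, with Benjamini-Hochberg adjustment over 24330 probes. Pairs of probes of a gene were tested on their within-array differences. The script was tested on simulated data. No count depth exists, and the number of arrays limits the precision. The supplement to the paper gives 2 arrays per labelling and condition, and which arrays share a labelling is not given in the sources used here.

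Arrays with the same replicate number deviated together (correlation of deviations from the condition means 0.275 to 0.64), as did arrays of one slide with other numbers (0.325 to 0.655), and arrays of different slides did not (-0.477 to -0.0473). The replicate numbers, taken from the labels, thus showed no pairing beyond the shared slide. Centring within each condition by itself pushes the values between slides below 0. The members and lists were chosen with earlier results of these data known. Named were the 10 largest called rises and falls, genes called both ways, stalk proteins, paralogs with their partners, the 5 brightest probes, the 5 largest probe differences and the extremes of each other list. Other genes were added after their values were seen. Alternatives covered scaling, background correction (on the median intensity of the spot), filters, outlier spots, the methods' t-test, blocks and arrays left out, and the removal of replicate 1 of the over-expression arrays was chosen after seeing the data. Genome coordinates of array probes were not used here. Results of 2 genes are not reported here by name, and their probes remain in all counts but not in the plots by gene.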

Additional observations from a re-analysis of the deposited data

Results flagged for a closer look

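Among 118 sets of arrays of the named ribosomal protein probes, 11 held an array far from the others of its condition by Dixon's test, and chance flags about 1 in 20 such sets. On the arrays labelled SRSF2 over-expression these were replicate 2 with log2 signals of 7.02 for RPL10 A_32_P184367, 7.04 for RPLP0 A_23_P204472 and 9.26 for RPS2 A_23_P106708, each the lowest of its group. Replicate 5 had the highest value of RPL23A A_23_P29747 (8.20), replicate 6 that of RPS15A A_24_P221366 (7.02), and replicate 1 that of RPL28 A_24_P916251 (-0.38).

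Among the control arrays, replicate 2 was lowest for RPL23A A_24_P91140 (2.18) and RPLP0 A_32_P184796 (7.68). Replicate 4 was highest for RPL3 A_32_P209350 (5.78). Replicate 6 was lowest for RPL7A A_32_P88892 (5.06) and RPLP0 A_23_P204472 (7.10). The next RPL7A value among the controls was 5.29, and all of them lay below the 5.54 that was lowest in the arrays labelled SRSF2 over-expression.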

How the results depend on the processing

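Each count was recomputed under 20 alternatives, which are given as higher and lower probes, then genes, of the ribosomal proteins (as reported 36 and 7 probes, 25 and 5 genes, and 20 differing probe pairs). A replicate block gave 56 and 11 probes, 38 and 9 genes and 31 pairs. Slide as a block gave 75 and 17 probes, 47 and 14 genes and 54 pairs. Averaging the 2 arrays of a slide gave 9 and 2 probes, 8 and 1 genes and 2 pairs, and with slide as a block added 21 and 4 probes, 2 lower genes and 8 pairs. Median scaling gave 20 higher probes and 15 higher genes, and quantile normalization 3 lower probes of 3 genes. Spike-in scaling gave 11 and 0 probes, 10 and 0 genes, 7 probes at 1.5-fold and a median log2 fold change of 0.30, and without slide 1 it gave 0 probes and 0 genes either way by limma (4 at an unadjusted p under 0.05). Normexp gave 0 probes, 0 genes and 0 pairs and a median of 0.23. Of all probes tested, 11.6% were called with normexp, 28.7% with spike-in scaling and 70.1% with slide as a block, against 57.7% as reported. With no filter on dim probes 19 probes of 15 genes were higher, 3 genes lower and 13 pairs differed. Without slide 2, 4 probes of 3 genes were lower. Without slide 3, 22 probes were higher, 4 probes of 2 genes lower and 4 pairs differed. Without the 2 arrays of highest background 3 genes were lower and 11 pairs differed. The methods' t-test gave 8 lower genes. With 1 probe per gene 13 genes were higher and 3 lower. The cause was not tested, beyond the fewer arrays where arrays were left out.

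The called falls of RPL22 A_32_P210252 turned to log2 fold changes of 0.10 (spike-in scaling) and 0.037 (normexp), of RPL28 A_24_P916251 to 0.0051 and of RPL3 A_23_P68942 to 0.085 (spike-in scaling). Removing replicate 1 of the over-expression arrays, chosen after seeing the data, gave 30 and 6 probes. Spike-in scaling also took the falls of RPS14 A_23_P81492 and RPS28 A_24_P40010 to -0.0015 and -0.0013; without slide 1 these 5 probes were at -0.25 to -0.085 under that scaling. Beside the stalk and paralog probes named in the report, slide as a block added calls for RPL10 A_23_P217666, RPL3 A_32_P209350, RPL39 A_32_P220307, RPL7 A_32_P155364 and RPS27 A_23_P74629 (limma adjusted p 0.0132 to 0.0438). A replicate block added RPL10 A_23_P217666 (0.0477) and lost RPL26 A_32_P93782 (0.0521). The probe pairs were not refitted under median or spike-in scaling, which cancel within an array, nor with the t-test. Array values carry no read depth, and signal over background was sufficient for 185 of 187 probes on all arrays.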

Other observations

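The extremes of the other protein synthesis lists were larger than any change among the ribosomal proteins. Among mitochondrial ribosomal proteins MRPL45 was higher by 1.03 on the log2 scale (SE 0.059, limma adjusted p = 1.8e-08) and MRPL38 fell by 1.27 (SE 0.053, limma adjusted p = 1.45e-09). EIF5, the factor that triggers GTP hydrolysis at the start codon, was higher by 2.71 on A_24_P398810 (SE 0.079, limma adjusted p = 1.01e-10), and EIF3B, a scaffold subunit of initiation factor 3, fell by 0.80 (SE 0.099, limma adjusted p = 1.79e-05). Among other TOP mRNAs EEF1A1 was higher by 1.28 on A_32_P44316 (SE 0.21, limma adjusted p = 0.000175) and the intermediate filament gene VIM fell by 0.58 (SE 0.050, limma adjusted p = 7.51e-07).

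Among ribosome biogenesis factors RIOK2, a kinase of late small subunit maturation, was higher by 0.85 (SE 0.079, limma adjusted p = 1.33e-06). The lowest log2 fold change of that list was that of NOL10, which was well above background on all 6 control arrays but on 3 of the 6 others, so that no fold is given. In the RNA polymerase I list RRN3, the factor that makes the polymerase competent for initiation, was higher by 1.38 (SE 0.089, limma adjusted p = 4.92e-08) and well above background on 5 of the 6 control arrays, and the subunit POLR1E fell by 0.75 (SE 0.091, limma adjusted p = 1.52e-05). RPS19BP1, which the symbol rule takes although it is no ribosomal protein, had a log2 fold change of 0.01 (SE 0.074).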
